A study of Arabidopsis thaliana with 25 samples.

Results

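The comparison described here is the response of Arabidopsis thaliana roots (ecotype Col-0) to activation of a PEAR2-GR fusion without a translation inhibitor. Its changes rest on 6 of the 25 arrays of the series, chosen by their labels. Of these, 3 are from roots given dexamethasone (DEX) for 2 h and 3 from roots given the solvent DMSO for 1 h. The spread behind each SE and p-value was estimated from all 25 arrays. All 6 carry pRPS5A::PEAR2-GR, come from seedlings aged 4 days and belong to arraying batch A451. No plants without the fusion were analysed here, so the controls also carry it, and the 2 groups differ in time as well as in DEX. Effects of DEX itself, of PEAR2-GR and of the extra hour cannot be told apart. For reference, the other groups compared are the matching DEX (2 h) and DMSO (1 h) roots of a pRPS5A::PEAR1-GR line (3 arrays each, batch A451). Also compared are PEAR2-GR roots given DEX with cycloheximide (CHX, an inhibitor of translation) or DMSO with CHX, both for 2 h (3 arrays each, batches A451 and A461). PEAR1-GR roots given CHX for 2 h entered only the estimate of the spread: 4 arrays with DEX (batch A451) and 3 with DMSO (batch A461). The labels do not say whether replicates were separate plant pools, nor how many independent lines were used. The p-values therefore measure only the spread between arrays of the same group. One label field calls the tissue root and another root tips.

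PEAR2 (AT5G02460) belongs to the DOF family, plant-specific transcription factors that bind DNA through a zinc finger. PEAR proteins are known from the early phloem of the root, from which they move into neighbouring cells and promote the divisions that thicken the vascular tissue. In a GR fusion the factor is tied to the hormone-binding part of the rat glucocorticoid receptor, which holds it in the cytoplasm until DEX is given. The RPS5A promoter drives the fusion mainly in dividing cells, so it is made in many cells that do not normally hold PEAR2.

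Values are log2 intensities, 1 per array and row of the array table, and every change below is the DEX mean minus the DMSO mean on that scale. The PEAR2 row checks the lines. It read 10.73, 10.74 and 10.74 in DMSO and 10.97, 11.05 and 10.84 in DEX. The groups did not overlap, but the change of 0.22 (SE 0.12) was not past the threshold (adjusted p = 0.396). In the PEAR1 line without CHX the same row lay between 5.91 and 6.62. The row cannot separate the transgene from the plant's own PEAR2. Arrays of the same group correlated at 0.987 to 0.991 over the rows that name 1 gene, and arrays of different groups at 0.984 to 0.987.

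Among 17504 rows that name a gene, 717 passed an adjusted p of 0.05, which is 4.1% (background of either direction, limma with Benjamini-Hochberg adjustment). Of these, 376 (2.15%) rose and 341 (1.95%) fell. Rows that name 1 gene gave 363 rises and 330 falls. In 351 of those rises and 323 of those falls the 3 DEX values did not overlap the 3 DMSO values, a property shared by 17.9% of all rows naming 1 gene. Changes were mostly small: the median rise was 0.78 and the median fall 0.73 below DMSO, and 99 rises and 73 falls reached 1 on the log2 scale, a doubling or halving. Rows that fell had higher DMSO intensities than rows that rose, although intensities of different rows also depend on their probes. The median DMSO mean was 6.63 for the falls, against 5.12 for the rises and 4.40 for all rows with 1 gene. A DMSO mean at or under 2.20, the lower quartile of the arrays, was found for 52 rises and 1 fall and for 28.6% of all rows. Rows at that level can rise but have little room to fall, so this difference is partly fixed by the choice of rows. For genes that start or end at or below that level, a change may be a lower bound, unless a single array sets its size. Without detection calls this was not tested. In whole roots, fewer cells that express a gene and less RNA per cell cannot be told apart.

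The number of calls depended on which arrays set the spread. With the 6 arrays alone, 93 rows rose and 73 fell, and with the 12 arrays of both lines without CHX 193 rose and 178 fell. Leaving out DMSO replicate 3 gave 230 rises and 235 falls. Of the 363 rises and 330 falls of 1 gene, 70 and 60 were called under each of 15 alternative settings. Of 135 named genes that were called, 86 lost the call with the 6 arrays alone and 54 with the 12 arrays. Where lost calls are given below for single genes, they are those of leaving out 1 array, unless stated.

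**Figure D1:**
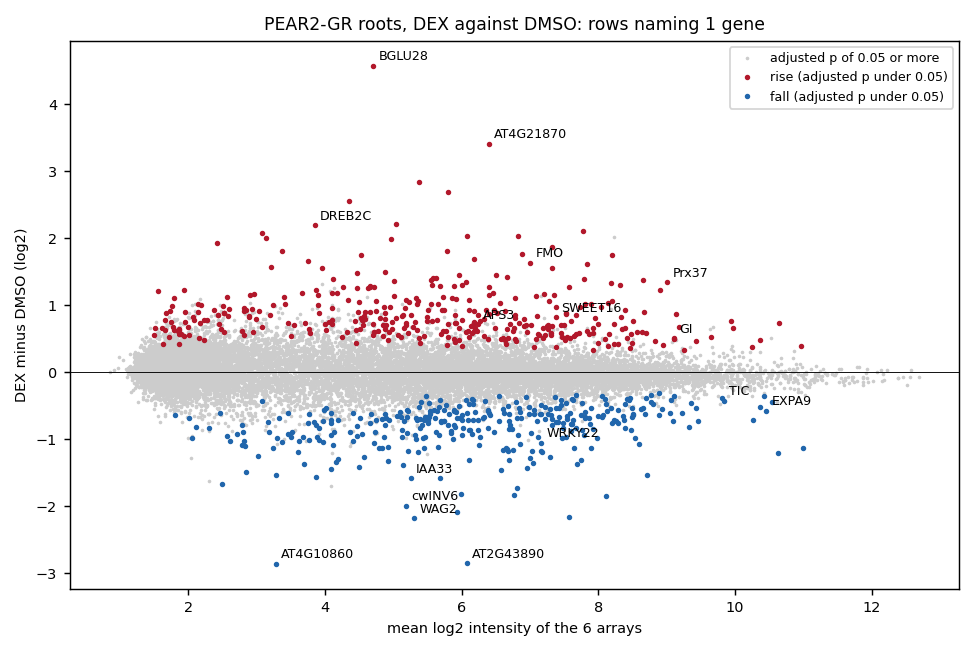
Change on DEX (DEX minus DMSO, log2) against the mean log2 intensity of the 6 PEAR2-GR arrays, 1 point per row that names 1 gene. Red points rose and blue points fell with an adjusted p under 0.05. BGLU28 stands apart at 4.58, and the falls lie further to the right than the rises. Rows near the floor have little room to fall.

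Named genes are under-represented in the array annotation used here. Only 1805 of the 16552 genes with a row of their own have a symbol, and 16.8% of protein-coding loci with a symbol have such a row, against 86.4% of loci without one. The largest changes are therefore given first by locus, without a role, and the genes with a symbol are then described by what they do.

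BGLU28, a beta-glucosidase of the glucosinolate-degrading type that is known as a marker of sulfur shortage, had the largest rise. It read 2.75, 2.27 and 2.23 in DMSO and 7.11, 7.16 and 6.72 in DEX. The groups were far apart, and the mean was 23.9-fold higher (change 4.58, SE 0.29). AT4G21870 read 4.23, 5.08 and 4.75 in DMSO and 8.23, 7.94 and 8.12 in DEX, a 10.6-fold rise. Of the other 13 of the 15 largest rises, 11 started above the lower quartile of the arrays. AT3G54780 rose by 2.84 (SE 0.23), AT1G05700 by 2.69 (SE 0.27) and AT1G47395 by 2.56 (SE 0.31). AT4G18340 had one of the tightest responses, with 5.66, 5.89 and 5.88 in DMSO and 7.75, 7.84 and 7.96 in DEX. AT5G48430, AT1G72416, AT1G27020, AT1G80380 and AT2G14247 rose by between 1.80 and 2.10, and AT5G37990 by 2.22. AT2G05510 and AT5G28960 rose from below that quartile, by 2.00 and 1.93. Of the 15 genes, 12 were called under each of the 15 alternatives. AT2G05510, AT2G14247 and AT5G28960 were not tested in the setting that leaves out the dimmest rows, and AT5G28960 was also not called with the 6 arrays alone.

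Rank by rank, the 15 largest falls were smaller in size than the 15 largest rises. AT2G43890 read 7.42, 7.81 and 7.27 in DMSO and 5.22, 5.24 and 3.47 in DEX, a 7.24-fold fall with 1 low DEX array. WAG2, an AGC kinase that directs PIN auxin carriers, read 5.95, 6.66 and 6.58 in DMSO and 3.80, 4.25 and 4.61 in DEX. Its 4.54-fold fall (change -2.18, SE 0.23) was called under each of the 15 alternatives. AT1G77200 read 8.75, 8.46 and 8.74 in DMSO and 6.61, 6.68 and 6.19 in DEX, and AT1G22810 fell by 2.09 (SE 0.19). AT1G78230, AT3G57950, AT3G14540, AT5G18470, AT2G34610 and AT1G76620 fell by between 1.54 and 1.84. The glutathione transferase ATGSTF13 and the auxin repressor IAA33 also fell, by 1.73 and 1.59. For 3 of the 15 largest falls a single control array set the size. AT4G10860 read 2.76, 7.06 and 4.31 in DMSO and 2.02, 2.02 and 1.51 in DEX, and its change went from -2.86 to -1.69 without DMSO replicate 2. The cell-wall invertase cwINV6 read 5.35, 7.63 and 5.54 in DMSO and 4.18, 4.04 and 4.32 in DEX, and its change of -2.00 became -1.27 without that array. ECS1 read 2.46, 5.21 and 2.31 in DMSO and 1.66, 1.71 and 1.60 in DEX, and its change of -1.67 became -0.73 without it. Both AT4G10860 and ECS1 ended below the lower quartile, but their falls cannot be read as lower bounds, since DMSO replicate 2 set their size.

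**Figure D2:**
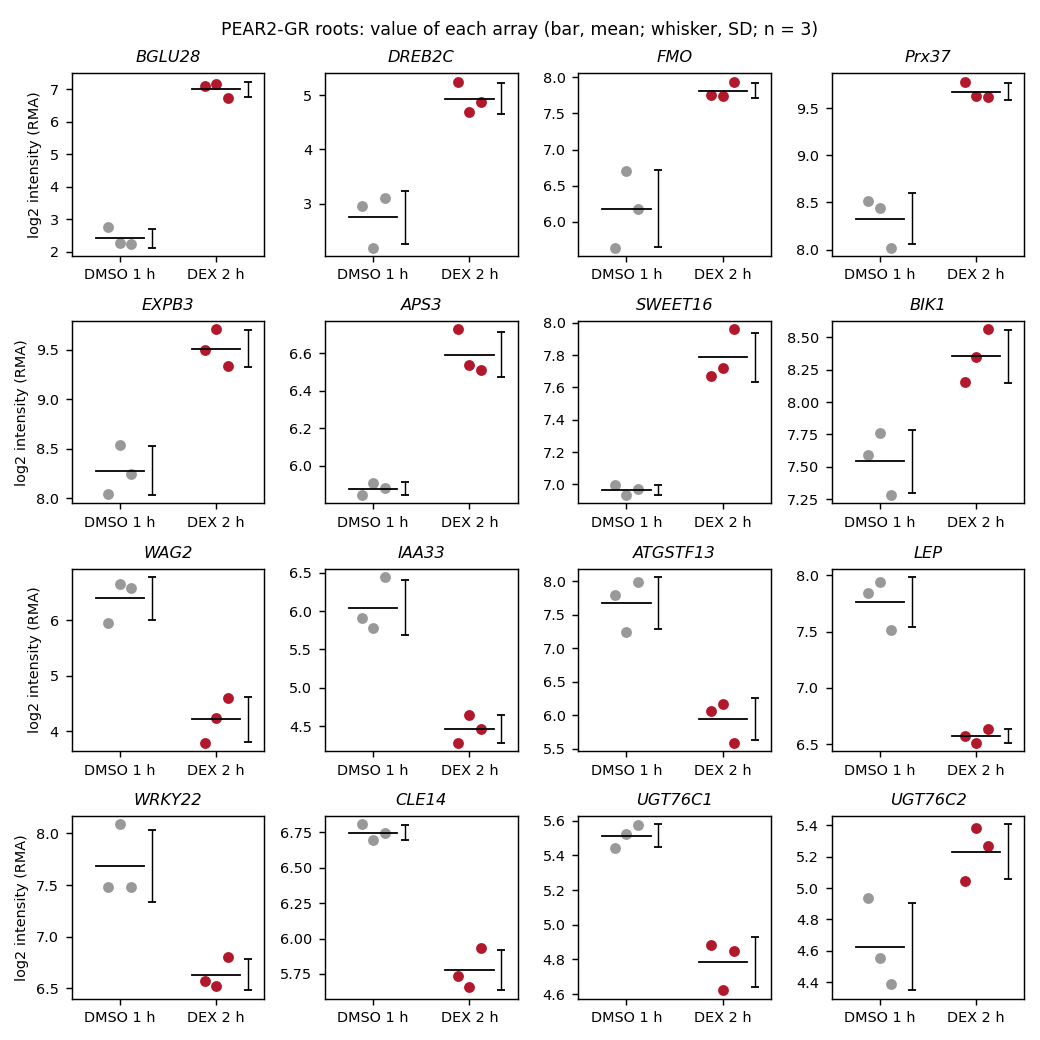
Log2 intensity of 16 genes with a symbol in each PEAR2-GR array, DMSO for 1 h in grey and DEX for 2 h in red. The bar is the mean and the whisker the SD of 3 arrays, and each panel has its own scale. In none of the 16 panels do the DMSO and DEX points overlap.

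Of the 1805 genes with a symbol, 55 rose and 41 fell, 5.32% in all. Over all 16552 genes, 2.14% rose and 1.99% fell. With the 6 arrays alone, 12 of these rises and 9 of these falls were called. The groups by role below were drawn up after the values were seen, so they carry no test of their own. Where classes are counted, the class was defined by symbols and synonyms over all genes, so some members are loci without a symbol. Its share is read beside 4.13%, the share of all 16552 genes that was called.

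Genes of sulfur use, redox balance and detoxification appeared among the rises and the falls. APS3, an ATP sulfurylase at the entry of sulfate assimilation, read 5.84, 5.91 and 5.88 in DMSO and 6.73, 6.54 and 6.51 in DEX, a rise of 0.71 (SE 0.13). MSRB4, a methionine sulfoxide reductase that repairs oxidised protein, rose by 1.27 (SE 0.25), as 1 of 6 measured genes of its family. The flavin monooxygenase FMO read 5.65, 6.71 and 6.18 in DMSO and 7.76, 7.74 and 7.94 in DEX. Prx37, a class III peroxidase of the type that uses hydrogen peroxide in the cell wall, read 8.52, 8.44 and 8.02 in DMSO and 9.78, 9.63 and 9.61 in DEX, and AT5G64120 (PRX71), of the same type, rose by 0.65 (SE 0.16). Of 15 glutathione transferases, which join glutathione to reactive compounds, 1 rose (GSTU27, 0.71) and 1 fell (ATGSTF13). ATGSTF13 read 7.79, 7.25 and 7.99 in DMSO and 6.07, 6.17 and 5.59 in DEX. The plastid thioredoxins TRXF2 and TY1 rose by 0.75 and 0.51. Both thioredoxin calls and that of AT5G64120 were lost when at least 1 of the 6 arrays was left out.

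Starvation lists, assembled by locus from background knowledge but with earlier results of these data known, moved only in part. Their counts and medians are therefore no independent test. Of 17 sulfur deficiency genes, 2 had a row: BGLU28 rose and AT1G04770 read 0.26 above DMSO without passing the test. Of 20 sugar starvation genes 5 had a row and 3 rose, with a list median of 1.35 against 0.015 for all genes. AT1G80380 read 6.60, 5.90 and 6.65 in DMSO and 8.22, 8.25 and 8.30 in DEX. AT3G15450 rose by 1.80 (SE 0.32) and AT3G15630 by 1.35 (SE 0.21), while AT2G32150 (0.051) and AKINBETA1 (0.32), a subunit of the energy-sensing kinase SnRK1, did not pass. Of 22 iron deficiency genes 6 had a row, and AT1G47395 rose alone. The list median of the 6 was 0.048. The regulators of iron uptake BHLH101 and PYE read -0.27 and -0.033, and AT1G47400 read 0.39, none past the threshold. Sugar transport also appeared among the calls. SWEET16, a sugar carrier of the vacuole membrane, read 6.99, 6.93 and 6.97 in DMSO and 7.67, 7.72 and 7.96 in DEX. Its relative SWEET17, a fructose carrier of the same membrane, rose by 0.78 (SE 0.22), a call lost when DEX replicate 2 or 3 or DMSO replicate 1 or 3 was left out. The other 14 of the 16 SWEET genes did not pass, and the class median was -0.0084.

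Cell wall genes moved in both directions. EXPB3, a beta-expansin that loosens the wall, read 8.05, 8.54 and 8.25 in DMSO and 9.49, 9.71 and 9.33 in DEX, a 2.35-fold rise (SE 0.15 log2). In contrast, the alpha-expansins EXPA8 and EXPA9 fell by 0.78 and 0.58, and the other 20 of 23 expansins did not pass. Of 10 XTH genes, whose enzymes cut and rejoin xyloglucan, XTH33 rose from 4.81, 4.89 and 4.79 to 5.90, 5.91 and 5.75, and XTH16 rose by 0.61. Of 24 TBL genes, a family of acetyltransferases of wall polysaccharides, 3 rose: AT2G31110 (TBL40) by 0.85, TBL34 by 0.80 and TBL28 by 0.53. No XTH or TBL gene fell. Falls among wall genes included the pectin methylesterase ATPMEPCRB by 1.13 and the cellulose synthase-like CSLD2, which is needed for root hair growth, by 0.47. EXO, a brassinosteroid-responsive gene that promotes cell expansion, fell by 0.89. Leaving out at least 1 of the 6 arrays ended the calls of EXPA9, XTH16, TBL28, CSLD2 and EXO.

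Lignin and cytokinin conjugates gave pairs of opposite changes. BGLU46, a beta-glucosidase that releases monolignols from their glucosides, rose by 0.55, while UGT72E2, which makes such glucosides, fell from 8.42, 8.67 and 8.68 to 7.67, 7.92 and 8.02. UGT76C1 and UGT76C2 are neighbouring genes for enzymes that inactivate cytokinins by adding glucose to the ring nitrogen. UGT76C1 read 5.44, 5.52 and 5.57 in DMSO and 4.88, 4.62 and 4.85 in DEX. UGT76C2 moved the other way, from 4.93, 4.56 and 4.39 to 5.04, 5.39 and 5.27. Neither pair of groups overlapped. Changes were -0.73 (SE 0.16) and 0.61 (SE 0.13), and the call of UGT76C2 was lost without DMSO replicate 3, that of BGLU46 without DEX replicate 3, DMSO replicate 1 or DMSO replicate 3. Over the 55 UDP-glycosyltransferases, 2 rose and 2 fell. The cytokinin response genes ARR15 and RR16, which are type-A response regulators, read -0.14 and 0.13, and none of 8 response regulators passed the threshold (limma, 0 with an unadjusted p under 0.05).

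Among transcription factors with a symbol, those of the AP2/ERF type moved in both directions; loci without a symbol, some of them with falls as large, are not assigned to families here. DREB2C, linked to drought and heat responses, read 2.97, 2.19 and 3.10 in DMSO and 5.25, 4.70 and 4.87 in DEX, a 4.56-fold rise. AT5G61590 (DEWAX), a repressor of wax synthesis, rose by 1.27 (SE 0.23), and ABR1, a repressor in abscisic acid responses, by 0.71 (SE 0.18). SHN2, an activator of wax and cutin genes, was near the floor at 1.30 to 1.36 in DMSO and 2.34 to 2.75 in DEX. Its rise of 1.23 may be a lower bound. LEP, a family member that shapes leaf stalks, went down from 7.84, 7.94 and 7.51 to 6.57, 6.51 and 6.63. Of 9 WRKY and ZAT genes, 3 rose and 1 fell. None of these calls was kept with the 6 arrays alone, and 1 rise and 1 fall were kept with the 12 arrays without CHX. The zinc finger repressor STZ (ZAT10) rose by 0.85, WRKY47 by 0.60 and WRKY29 by 0.47. WRKY22, an immune-induced factor, fell from 7.48, 8.09 and 7.48 to 6.57, 6.52 and 6.81. In the bZIP family, the flowering factor FD rose by 0.97, while bZIP44 and BZIP61 fell by 0.70 and 0.61. HYH, which acts with HY5 in light responses, and NAI1, a bHLH factor of ER bodies, rose by 0.62 and 0.60. TRY, a MYB-type regulator of hair patterning in the epidermis, fell by 1.04, and BIM1, a partner of brassinosteroid factors, by 0.45. The calls of ABR1, STZ, WRKY29, FD, BZIP61, HYH, NAI1 and BIM1 were lost when at least 1 of the 6 arrays was left out.

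**Figure D3:**
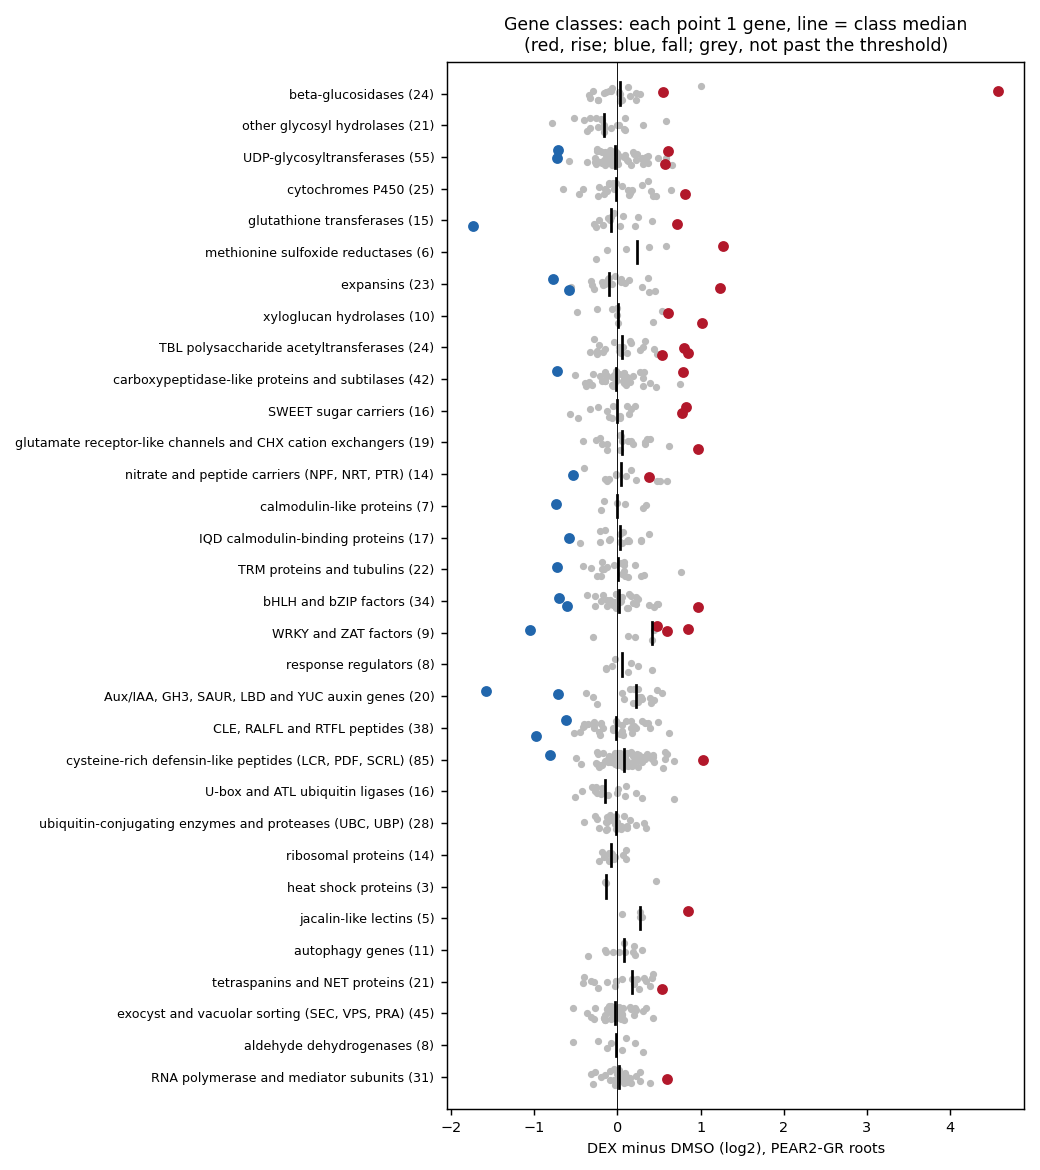
Change on DEX (log2) of every measured gene in 32 classes defined by gene symbol or synonym. The number of genes is in brackets and the class median is a black line. Red points rose, blue points fell and grey points did not pass the threshold. Most class medians lie close to 0, and the share called is highest among the WRKY and ZAT genes, at 4 of 9. None of these 4 calls was kept with the 6 arrays alone.

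Auxin genes were lower where they were called. IAA33, a member of the Aux/IAA repressors, read 5.92, 5.78 and 6.45 in DMSO and 4.28, 4.64 and 4.46 in DEX. GH3.1, of the family that joins auxin to amino acids, read 6.38, 6.55 and 6.83 in DMSO and 6.12, 5.72 and 5.80 in DEX. These were the only calls among 20 genes of the Aux/IAA, GH3, SAUR, LBD and YUC families. Of the 20, 15 read above DMSO, and the median change of all 20 was 0.22.

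Immune signalling genes were represented in both directions. BIK1, a cytoplasmic kinase that acts below immune receptors, read 7.59, 7.76 and 7.28 in DMSO and 8.15, 8.35 and 8.56 in DEX. The chitinase gene ChiC rose by 0.87 (SE 0.19), the receptor-like kinase gene B120 by 1.06 (SE 0.18) and SGT1A, whose product assists resistance proteins, by 0.73 (SE 0.18). GRI, which encodes a cell death regulating peptide, fell by 0.93. Its change was -0.55, not past the threshold, when DMSO replicate 2 was left out. The calls of ChiC and SGT1A were also lost when at least 1 of the 6 arrays was left out. The jacalin-like lectin gene JAL22 rose by 0.85 as 1 of 5 measured, a call also lost in this way.

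Peptide hormones and their receptors gave few calls. CLE14, a root-expressed CLE peptide, read 6.80, 6.70 and 6.74 in DMSO and 5.74, 5.66 and 5.93 in DEX. CLE43 fell by 0.61 to the lower quartile, a call lost without DEX replicate 3, DMSO replicate 1 or DMSO replicate 3. The remaining 36 of 38 CLE, RALFL and RTFL genes did not pass. Within 85 cysteine-rich defensin-like genes, LCR69 rose from 7.04, 7.64 and 7.20 to 8.22, 8.29 and 8.44, and PDF2.5 fell from 9.82, 9.55 and 9.84 to 9.17, 8.86 and 8.74. PSY1R, a receptor kinase of sulfated peptide signalling, rose by 0.73. AT4G28650 (PXL2), a relative of the cambium receptor PXY, fell by 0.55 (SE 0.12) from 6.85, 6.85 and 6.96 to 6.30, 6.28 and 6.42.

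Single genes of ion carriage, the clock and the cell cycle were called, and they do not describe those groups as a whole. Of 19 glutamate receptor-like channels and CHX-type cation exchangers 1 rose (5.26%). Of 14 nitrate and peptide carriers 1 rose and 1 fell (14.3%), beside 4.13% of all genes called. The clock list had 1 gene with a row, GI, and the mitosis list had none. CHX16, a cation exchanger, rose by 0.97, and the nitrate efflux gene NAXT1 by 0.38, while AT2G26690 (NPF6.2), of the nitrate and peptide carrier family, fell by 0.53. GI, a clock component that peaks late in the day, read 8.89, 8.84 and 8.83 in DMSO and 9.36, 9.24 and 9.46 in DEX. TIC, another regulator of the clock, read 10.08, 10.03 and 10.04 in DMSO and 9.57, 9.60 and 9.70 in DEX. FBL17, an F-box protein that promotes the cell cycle by removing CDK inhibitors, fell by 0.40 (SE 0.11). Asparaginase ASPGB1, which frees nitrogen from asparagine, fell by 1.16 (SE 0.16), and SRC2, linked to cold and calcium responses, by 1.31 (SE 0.15). The calls of NAXT1, AT2G26690 and FBL17 were lost when at least 1 of the 6 arrays was left out.

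Several classes gave no call, beside 4.13% of all genes called. None passed among 14 ribosomal proteins, 28 ubiquitin-conjugating enzymes and ubiquitin proteases, and 45 SEC, VPS and PRA genes of vesicle traffic. The same holds for 11 autophagy genes and 3 heat shock proteins. At that share, classes of this size would hold few or no calls, so this does not set them apart. No call was found either among 21 other glycosyl hydrolases, 16 U-box and ATL ubiquitin ligases and 8 aldehyde dehydrogenases. Of 31 RNA polymerase and mediator subunits, 1 rose. Ribosomal protein changes lay between -0.22 and 0.10. In the limma fit, 0, 4, 2, 1 and 1 members had an unadjusted p under 0.05 in the ribosomal, ubiquitin-conjugating and protease, vesicle traffic, autophagy and heat shock classes. Among cell type markers with a row, the root hair expansin EXPA7 was high in all 6 arrays (9.62 to 9.83) and read -0.068 on the change scale, without passing. The phloem markers OPS and CLE45 read 0.28 and 0.29 above DMSO, and the green tissue marker RCA (Rubisco activase) 0.39 below, none past the threshold. RCA levels were 6.84 to 7.16 in DMSO and 6.58 to 6.73 in DEX, and its part in other changes was not tested. Markers of root cap, endodermis and xylem, and the mitosis list, had no row naming them alone.

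Some pairs of neighbouring genes were both called, in the same or in opposite directions. Of 10416 pairs of adjacent protein-coding genes with a row each, both rose in 11, both fell in 14 and they moved in opposite directions in 12. Of all genes, 2.14% rose and 1.99% fell. Whether such pairs are more frequent than these shares would give was not tested. AT2G43870, AT2G43880 and AT2G43890 lie in a row on chromosome 2 and fell by 1.46, 1.17 and 2.86. On chromosome 5, AT5G43020, AT5G43030 and AT5G43040 fell by 0.73, 0.91 and 0.91, and AT5G37990 and AT5G38000 rose by 2.22 and 1.77. Probes were not checked here for matches to neighbouring genes of like sequence.

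The question of whether the response belongs to PEAR2 or to both fusions can be put to the PEAR1 line, which shares no arrays with the comparison but has the same batch, times and solvent. Of the 363 rises, 81.3% were above 0 there, against 50.7% of all rows, and their median change was 0.32. Of these, 103 rose and 1 fell past the threshold; of all tested rows, 3.07% were called in the PEAR1 line and 1.27% rose. The 330 falls had a median of -0.42 in the PEAR1 line, with 10.3% above 0. Of the 330, 111 fell and 1 rose past the threshold, while 1.81% of all tested rows fell. Both comparisons take the spread of each row from the same model, so rows of small spread are more readily called in both. BGLU28 changed by 3.49, AT4G21870 by 2.73, WAG2 by -2.13 and WRKY22 by -1.14 in the PEAR1 line. Like the PEAR2 line, that line has DEX at 2 h against DMSO at 1 h, so shared changes cannot be told apart from those of time or DEX.

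The difference between the lines was itself past the threshold for 19 rows, 0.109% of those tested, 14 (0.08%) higher and 5 (0.0286%) lower in the PEAR2 response. When only the 12 arrays without CHX were fitted, 2 were called. Leaving out PEAR1 DEX replicate 3, PEAR1 DMSO replicate 1, PEAR2 DEX replicate 2 or PEAR1 DEX replicate 1 gave 5, 7, 8 and 12 calls. Leaving out PEAR2 DEX replicate 1 or 3 or PEAR2 DMSO replicate 2 gave 37, 35 and 56. Of the 19, EXPB3 and JAL22 have a symbol. EXPB3 rose by 1.23 in the PEAR2 line and read -0.031 in the PEAR1 line, a difference of 1.26 (SE 0.22, adjusted p = 0.0170). JAL22 rose by 0.85 in the PEAR2 line and read -0.83 in the PEAR1 line. AT5G37990 rose by 2.22 and read -0.64 there. For most named genes the difference did not pass: BGLU28 differed by 1.08 (SE 0.41) and SWEET16 by 0.48 (SE 0.19), and a p that misses the threshold does not show equal responses.

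With CHX the same genes moved little in a common direction. In the comparison of DEX with CHX against DMSO with CHX, the 363 rises had a median of 0.038, with 56.2% above 0 against 45.9% of all rows, and 36 rose and 15 fell past the threshold (of all tested rows 3.96% rose and 3.48% fell, 7.44% together). The 330 falls had a median of 0.032, with 54.5% above 0, and 39 rose and 21 fell. The shares above 0 of both sets thus lay above that of all rows. BGLU28 changed by 4.69 more without CHX than with it, AT4G21870 by 3.64 more and DREB2C by 2.98 more. WAG2 fell by 2.25 more without CHX, and AT1G77200 by 2.86 more. Over all tested rows the difference passed for 959 (5.48%), 436 (2.49%) higher and 523 (2.99%) lower without CHX. The CHX control was the only one of batch A461 and was treated for 2 h rather than 1 h, so CHX, batch and time cannot be told apart in this difference.

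**Figure D4:**
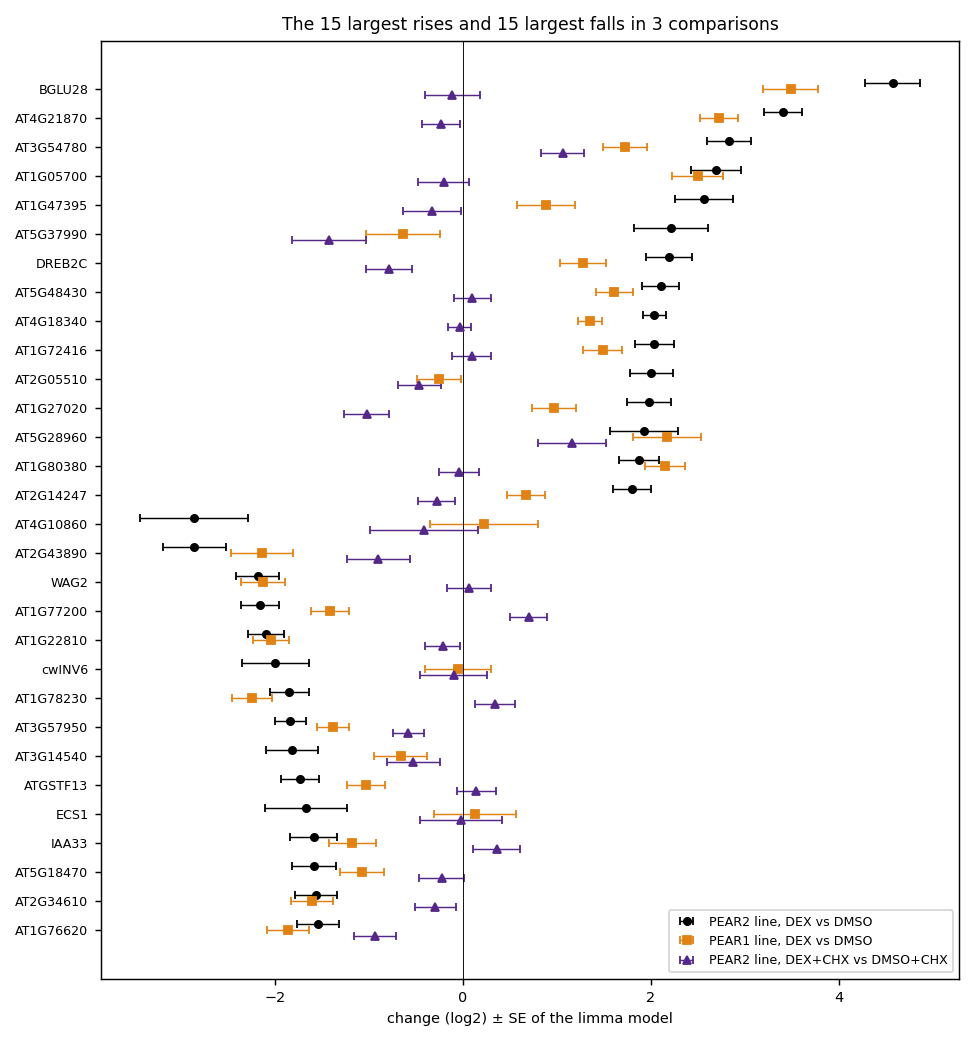
Change (log2, with the SE of the limma model) of the 15 largest rises and 15 largest falls of the PEAR2-GR response, in the PEAR2 line on DEX (circles), the PEAR1 line on DEX (squares) and the PEAR2 line on DEX with CHX (triangles). Genes were chosen on the circles. WAG2 and AT1G22810 have almost the same value in both lines, and BGLU28 lies near 0 with CHX.

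**Figure D5:**
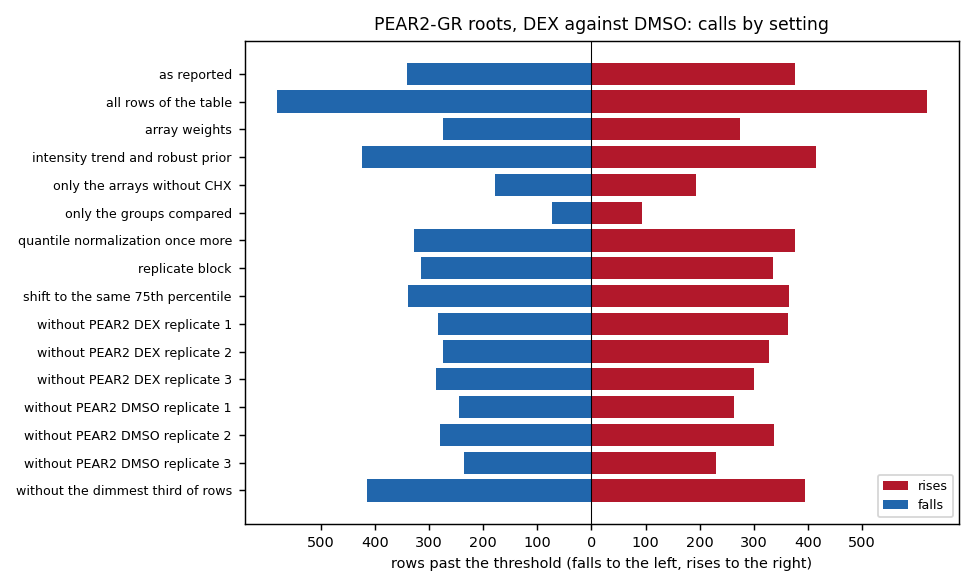
Number of rows called as rises (red, right) and falls (blue, left) in the PEAR2-GR response under each setting. The counts run from 93 rises and 73 falls with the 6 arrays alone to 620 and 581 when all rows of the table are tested.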

How the data were processed

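Biotin-labelled total RNA was hybridised to 1-colour whole-transcript arrays, per the labels' protocols. The deposited table holds log2 intensities that the authors obtained with RMA (per the submitters' processing notes), a method of background correction, normalization and probe summary. Neither the RMA version nor the genome build of the array is given in the sources used here; coordinates are left out for that reason. Without detection calls, low values do not show absence, and the number of arrays limits the precision.

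Of 38408 rows, 16746 name 1 gene, 758 several and 20904 none in the platform annotation; symbols came from the RefSeq table of assembly TAIR10.1, which matched 16601 rows with 1 gene. Where a gene had several rows, class and neighbour counts used its brightest row. All 25 arrays entered 1 limma 3.58.1 model (R 4.3.3) with a mean for each group, with Benjamini-Hochberg adjustment over the 17504 rows that name a gene and a threshold of 0.05. The fit was tested on simulated data.

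Genes were named by rule: PEAR2, the 15 largest rises and 15 largest falls with groups that do not overlap, up to 3 each way per class, every list member with a row, and the 5 largest each way of both difference tests. Called genes with a symbol were added after their values were seen. Members, lists and classes were chosen with earlier results of these data known. The class patterns were rewritten once the annotation was seen to hold only symbols and synonyms. A class of transcription factors is not reported here. Of 15 lists with 146 genes, the DOF list had 1 row (PEAR2), the auxin transport list 1 (WAG2, which fell), the clock list 1 (GI, which rose) and the touch and early stress list 4 (STZ and DREB2C, which rose, and CML37 and CML38, 0.089 and 0.34, which did not pass). Alternatives were other normalizations, spreads, filters and row sets, the replicate number as a block, and each array left out. Replicate numbers did not pair the arrays, since the deviations of same-numbered arrays from their group means correlated at 0.048, -0.041 and -0.024.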

Additional observations from a re-analysis of the deposited data

Results flagged for a closer look

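For 19 genes the test of the difference between the lines passed the threshold, that is, the DEX response (log2) of the PEAR2 line minus that of the PEAR1 line, with 3 arrays in each of 4 groups. It was positive for AT1G51820 (3.04), AT5G37990 (2.86), AT2G05510 (2.26), AT1G63530 (2.07), AT2G47560 (2.05), AT3G45160 (1.78) and JAL22 (1.67). The same holds, at smaller sizes, for AT4G22610 (1.54), AT5G47635 (1.46), AT4G04260 (1.37), AT1G73600 (1.31), EXPB3 (1.26), AT4G21310 (1.05) and AT1G23330 (0.79). The difference was negative for AT5G57510 (-1.66), AT1G63740 (-1.33), AT3G06990 (-1.33), AT1G52342 (-1.32) and AT5G43020 (-1.12).

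Their responses in the PEAR2 line were not all called: AT1G23330 (-0.026), AT5G47635 (0.15), AT4G22610 (0.40) and AT1G63530 (0.61) did not pass there, and in the PEAR1 line they read -0.82, -1.30, -1.14 and -1.46. AT1G51820 read 1.35, 2.69 and 2.07 in DMSO and 4.53, 2.68 and 5.11 in DEX, so its groups overlapped.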

How the results depend on the processing

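Testing all rows of the table gave 1201 calls for DEX against DMSO in the PEAR2 line (620 rises, 581 falls), 77 for the difference between lines and 1671 for the difference with CHX. The arrays without CHX gave 371 calls (193 and 178) and 2 between lines, and the groups compared alone 166 (93 and 73), 2 and 539. Apart from leaving out arrays, other settings moved only the 19 calls between lines by over 1.5 times. These were 10 with array weights, 49 with an intensity trend, 30 with quantile normalization once more and 37 without the dimmest rows. Leaving out each array gave 465 to 646 calls (230 to 363 rises, 235 to 288 falls) and 5 to 56 between lines, and 678 to 917 for the difference with CHX. Without PEAR2 DMSO replicate 3, calls went from 717 to 465 and rises from 376 to 230, also by over 1.5 times. The replicate number as a block gave 335 rises and 315 falls and ended the call of 19 of 135 named genes; it is no pairing here. Each scaling left the median of all rows within 0.02 of 0. Of 2323 values of named genes under alternatives, 421 lost the call, 1 gained it and 15 reversed, all of genes not called: AT2G32150 was -0.0042 and CML37 -0.0053 with array weights. Leaving out each array gave ARR15 -0.54 to 0.40, AT1G18910 -0.096 to 0.019, AT2G03230 -0.071 to 0.35, AT2G07981 -0.30 to 0.22, AT2G32150 -0.16 to 0.20, BHLH101 -0.49 to 0.12, CML37 -0.30 to 0.36, PYE -0.087 to 0.018 and RR16 -0.046 to 0.28.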
